A study of Mus musculus with 4 samples.

Results

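The comparison set the colon epithelium of mice that lacked both Bmi1 and Mel18 in intestinal epithelial cells (labelled Bmi1ΔIEC Mel18ΔIEC, and DKO below) against that of wild-type (WT) mice. Every probe set with a single gene symbol entered it: 34945 of the 45037 probe sets in the table, which stood for 18193 genes. The difference for a gene was log2 of its DKO intensity minus log2 of its wild-type intensity. Both were arrays of a series of 4, 1 for each genotype. The other two carried RNA of epithelium labelled Bmi1ΔIEC or Mel18ΔIEC, and their values stand beside the main pair where they help to read it. Mice of all 4 genotypes were C57BL/6, sex-matched and 6 to 8 weeks old, and all were given the carcinogen azoxymethane (AOM) intraperitoneally at 10 mg/kg. After 5 days they drank water with 3.5% dextran sulfate sodium (DSS), which injures the colonic lining, for 5 days, and they were killed on day 12, an early time in a model of colitis-associated colorectal cancer. Every group had thus received carcinogen and colitis, and no untreated epithelium was analysed here. Cells were shaken from the opened colon in 5 mM EDTA, and the protocol names no sort. Each array took 200 ng of total RNA. The driver of the epithelial deletion, the deleted exons and the number of mice behind an array are not given in the sources used here.

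Bmi1 and Mel18 (gene symbol Pcgf2) are related Polycomb group ring finger proteins. Each can pair with a RING1 protein in Polycomb repressive complex 1 (PRC1), which marks histone H2A with ubiquitin, compacts chromatin and helps to keep developmental genes silent. The best known target of Bmi1 is the Cdkn2a locus, whose products p16Ink4a and p19Arf restrain the cell cycle. In the colon, dividing cells at the base of the crypt renew absorptive colonocytes, mucus-secreting goblet cells and hormone-secreting enteroendocrine cells, whereas the uptake of fat, bile acids and peptides belongs mostly to enterocytes of the small intestine.

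Values were robust multi-array average (RMA) intensities on a linear scale, with medians between 32.1 and 34.2 units on the 4 arrays. The floor, below which a value was taken as dim, was the median of all values, 33.4 units. Pan-epithelial genes were bright on both arrays and none of 22 differed at least 2-fold: Epcam read 10930 units in wild type and 10481 on the DKO array. The targeted genes did not check the labels. Bmi1 read 116 units in wild type and 160 where Mel18 loss is labelled, but 334 with Bmi1 loss labelled and 432 on the DKO array. Both arrays labelled as lacking Bmi1 were thus the brightest for it, also in its other probe set (88.4, 339, 135 and 399 units), which goes against a loss of its transcript. Pcgf2 lay under the floor in wild type and on the DKO array, at 30.2 and 31.96 units. It read 33.4 on the Bmi1-labelled array and 39.8 on the Mel18-labelled array, so the array labelled as lacking Mel18 was the brightest for it. All of these values are near the floor, and its other probe set was under the floor on all 4 arrays. The arrays are therefore called by their labels, and every direction given here rests on them. Xist, the RNA of the inactive X chromosome, read 122 units in wild type and 611 on the DKO array (3 probe sets, differences of 1.81 to 3.39). The Y-linked gene Eif2s3y read 246 and 229. Whether the sexes of the mice differed between the arrays was not tested.

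Of the 18193 genes, 11853 reached the floor on at least 1 of both arrays and were compared. At least 2-fold differences were found for 512 genes (4.32%), of which 253 were higher (2.13%) and 259 lower (2.19%) on the DKO array. For scale, the pair of single-knockout arrays, which shares no array with this comparison, had 164 of 11681 genes at least 2-fold apart (1.4%). With 1 array a genotype no difference has a replicate check, there are no p-values, and the small number of arrays sets how precise any value can be. Here higher and lower as verdicts on a gene mean at least 2-fold. Each list count further on is to be set beside the shares of all compared genes, 2.13% higher and 2.19% lower. Both can include genes that reached the floor on only 1 array of the pair, which alone fixes the direction of their difference.

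The counts of higher and lower genes were nearly equal, but their sizes were not. Among higher genes, 61 differed at least 4-fold, 28 at least 8-fold and 11 at least 16-fold. Among lower genes, 38 differed at least 4-fold, 5 at least 8-fold and none at least 16-fold. The median difference of all compared genes was -0.01 on the log2 scale, with quartiles of -0.22 and 0.19. Many large differences had a dim side: 67 of the higher genes were under the floor in wild type, and 68 of the lower genes were under it on the DKO array. For these genes the size of a difference is not exact, since background signal sets the dimmer value, and the brighter value over the floor is given for some of them instead. Systematic clone or predicted-gene names belonged to 8 of the higher and 9 of the lower genes, which are counted and not named.

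**Figure D1:**
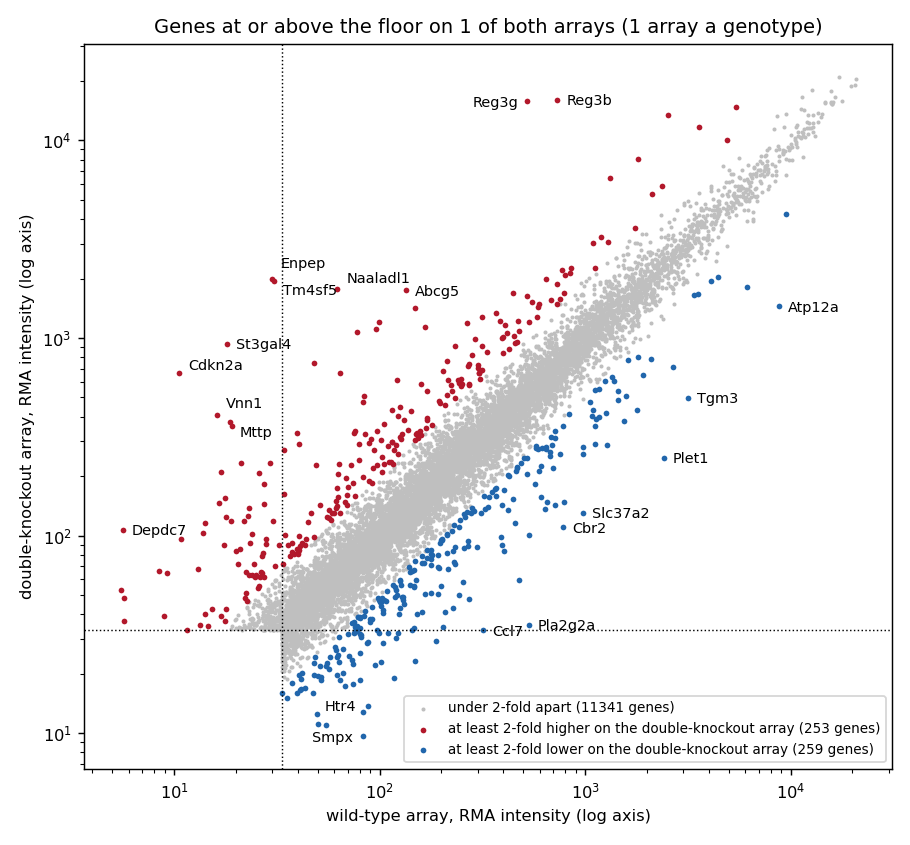
Each point is 1 gene, with its RMA intensity in wild type (x, log axis) and that of the DKO array (y, log axis). Red and blue points are the 253 higher and 259 lower genes, dotted lines mark the floor, and the genes farthest above the diagonal, such as Enpep, Tm4sf5 and Cdkn2a, start near or under the floor of 33.4 units in wild type.

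Several probe sets of a gene give partly separate readings of its transcript on the same 2 arrays, so their spread was used to read how well single differences hold within a gene. Over single probe sets, 818 of 20114 at or above the floor differed at least 2-fold (4.07%), 417 higher and 401 lower. Among 5013 genes with at least 2 probe sets at the floor, 2971 had all of them on the same side of 0 (59.3%), and the median gap between the highest and lowest probe set of a gene was 0.28 on the log2 scale. Of the 512 genes past 2-fold, 332 had only 1 probe set at the floor and so no such check. Of the other 180, 169 had all probe sets in 1 direction (93.9%) and 85 had every probe set past 2-fold. That share cannot be set against the 59.3% of all genes as a result, because the 2-fold rule was applied to 1 of the same probe sets. The remaining 11 had probe sets on both sides of 0. They include Mycn (-0.43 and 1.56), the G2 checkpoint kinase Wee1 (-1.76 and 0.05), the interferon-induced gene Xaf1 (-0.36 and 1.36) and the pericyte and fibroblast receptor Pdgfrb (-0.12 and 1.35). Their direction is therefore uncertain. In no gene did probe sets differ 2-fold in opposite directions. Genes named further on with a probe set short of 2-fold on the same side include Ighm (0.21), Lrig1 (-0.18), Socs2 (0.43), Maf (0.45), Ang (0.74), Dgat2 (0.83), Gstm3 (-0.82), Slc26a2 (-0.82) and Acly (-0.88), each value being that of the probe set nearest 0.

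Among 2057 genes with 3 or more probe sets at the floor, 13 had all of them at least 2-fold higher and 9 had all of them at least 2-fold lower. Ccnd2, which encodes the G1 cyclin D2, was the most densely read of the higher genes, with 7 probe sets between 1.30 and 1.67. Cd55, an inhibitor of complement at the cell surface, lay between 1.75 and 2.06 in 3 probe sets. Apoa1, the main protein of high-density lipoprotein, lay between 1.15 and 2.31 in 4 probe sets. All 4 were under the floor in wild type and read 70.3 to 95.6 units on the DKO array, so they were compared only through it. Gcnt3, which builds branches on mucin sugars, lay between 1.10 and 1.37 in 3. In the lower group, Myb, a transcription factor of crypt progenitor cells, lay between -1.80 and -1.63 in 3 probe sets. Slc26a3, the chloride and bicarbonate exchanger of the colon surface, lay between -2.50 and -1.15 in 4, and Mcm7, a subunit of the replicative helicase, between -1.69 and -1.14 in 4. Mcm3, of the same helicase, lay between -1.60 and -1.09 in 3. Skp2, a subunit of the ubiquitin ligase that removes p27, lay between -1.34 and -1.08, and the stearoyl-CoA desaturase Scd2 between -1.76 and -1.04.

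**Figure D2:**
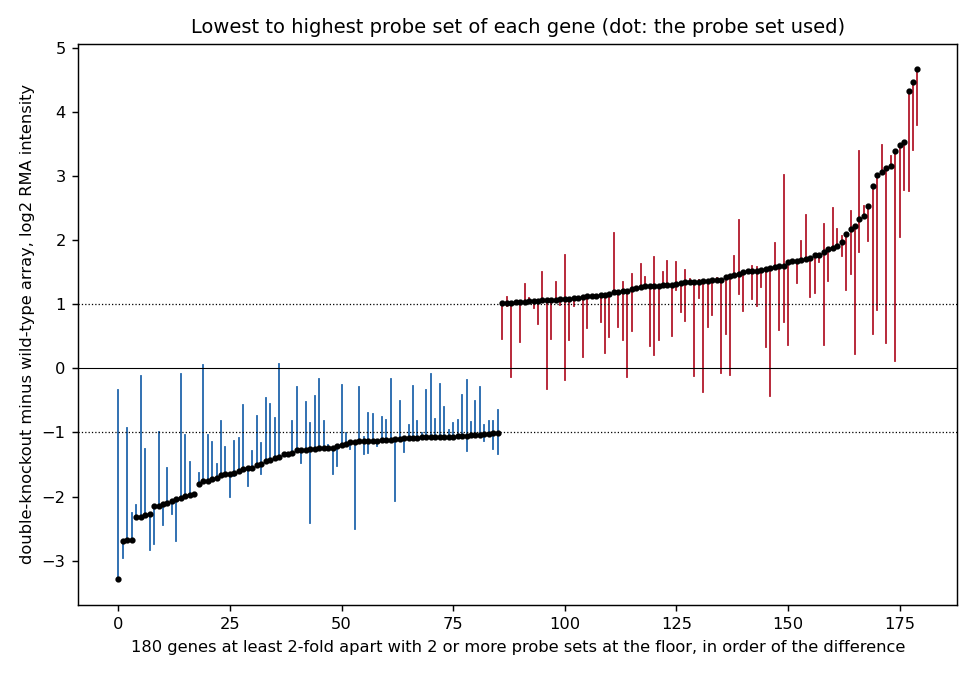
For the 180 genes past 2-fold with at least 2 probe sets at the floor, each line runs from the lowest to the highest log2 difference among the gene's probe sets (y), with genes ordered by the probe set used for the gene (dot). Lines that cross 0 belong to the 11 genes whose probe sets lie on both sides, and the widest is that of Mycn, from -0.43 to 1.56.

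The largest differences were mostly of genes near background in wild type that were bright on the DKO array. Of the 15 genes with the highest differences, 9 were under the floor in wild type, all 15 were brightest on the DKO array of the 4, and 11 have a single probe set. Intensities below are listed in the order wild type, Bmi1-labelled, Mel18-labelled, DKO. Enpep, a brush border and vascular aminopeptidase that trims acidic residues from peptides such as angiotensin, read 29.9, 264, 81.2 and 1995 units, and its last value was 59.8 times the floor (difference 6.06). Tm4sf5, a 4-span membrane protein, read 30.7, 48.5, 45.7 and 1948 units (5.99). For both genes the single-knockout arrays lay above the floor and far below the DKO array. St3gal4, a sialyltransferase, read 18.0, 696, 808 and 935 units (5.70), so its wild-type value is the one that stands apart. The peptide transporter gene Slc15a2 had the same shape at 16.8, 180, 160 and 210 units (3.64), but its other probe sets were under the floor and did not show it (-0.47 and 0.16). Depdc7 read 5.61, 5.61, 6.11 and 107 units (4.26), and Suox, the sulfite oxidase of mitochondria, read 48.0, 55.1, 69.5 and 745 units (3.96). Both were bright on the DKO array alone.

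Reg3b and Reg3g, bactericidal lectins that injured gut epithelium secretes, ended among the brightest transcripts. Reg3b read 731, 19.1, 18.6 and 16063 units (4.46), and its other probe set differed by 3.40. It ranked 1952 among genes by intensity in wild type and 9 on the DKO array. Reg3g read 523, 20.8, 28.8 and 15800.4 units (4.92). Both single-knockout arrays were under the floor for both genes, wild type lay between, and the DKO array was highest.

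Cdkn2a was under the floor on 3 arrays and bright on the fourth. Its only probe set read 10.6, 11.9, 11.7 and 662 units, a difference of 5.97, with the last value 19.9 times the floor. This probe set name ends in _a_at, a type shared by transcripts of 1 gene, so p16Ink4a and p19Arf transcripts cannot be told apart here. Cdkn2b, the neighbouring gene for the inhibitor p15, read 282, 491, 648 and 817 units (1.54), and its wild-type value was the lowest of the 4. Of 8 inhibitors of cyclin-dependent kinases these 2 were higher and none was lower; Cdkn1a, which encodes p21, read 3238 and 3242 units in wild type and on the DKO array (0.00), and Cdkn1b read 511 and 368 (-0.48). The 2 starts of Cdkn2a in RefSeq (GRCm38.p6) are shown because they differ in CpG content, a sequence feature that Polycomb complexes are known to prefer. Each stretch is the 250 bases before a start, 5′ to 3′ on the gene's strand, with every CpG in capitals. The first lies before the upstream start, from which p19Arf is made, and has 40 CpG dinucleotides. The second lies before the downstream start, from which p16Ink4a is made, and has 7.
Cdkn2a, chr4:89294620-89294869, minus strand: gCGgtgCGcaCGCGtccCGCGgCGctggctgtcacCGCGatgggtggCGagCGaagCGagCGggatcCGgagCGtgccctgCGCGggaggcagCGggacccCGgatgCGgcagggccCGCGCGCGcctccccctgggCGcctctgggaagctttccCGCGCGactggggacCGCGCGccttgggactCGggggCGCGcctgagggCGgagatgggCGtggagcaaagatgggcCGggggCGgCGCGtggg
Cdkn2a, chr4:89282193-89282442, minus strand: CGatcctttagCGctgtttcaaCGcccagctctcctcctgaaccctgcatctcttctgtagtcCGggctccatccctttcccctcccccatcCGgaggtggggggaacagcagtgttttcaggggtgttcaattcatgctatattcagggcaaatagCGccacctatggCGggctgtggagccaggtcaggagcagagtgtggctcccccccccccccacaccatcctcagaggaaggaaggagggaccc

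A list of developmental factors under Polycomb, which also holds Cdkn2a and Cdkn2b, had higher members and no lower ones. Of 57 measured, 38 were under the floor on both arrays, and of the other 19, 6 were higher, against 2.13% of all compared genes. Of these 6, 4 were compared only because the DKO array reached the floor. Their values had to be larger there, though not necessarily by 2-fold, and such members could not come out lower. Of the 14 members at the floor on both arrays 2 were higher, Cdkn2b and Sox9. Besides Cdkn2a and Cdkn2b the 6 were Irx2 (13.9 to 103 units, 2.89), Gata4 (21.0 to 85.6, 2.03), Tfap2a (28.1 to 90.8, 1.69) and Sox9, a crypt progenitor factor that is on in normal colon (169 to 541, 1.68). Irx2 and Gata4 were under the floor on all 3 other arrays, and the second Gata4 probe set was under it on all 4 (0.12). The Hox genes, which encode position along the body axis and are classical Polycomb targets, gave no higher member among 16. Hoxd10 was lower (125 to 39.9 units, -1.64), the median was 0.09, and 17 further Hox genes were under the floor on both arrays. The hindgut gene Hoxb13 read 2534 and 1899 units (-0.42).

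Among 19 PRC1 subunits Bmi1 was higher and Kdm2b, which brings a variant PRC1 to CpG islands, was lower (354 to 166 units, -1.09). The catalytic subunits Rnf2 and Ring1 differed by -0.09 and 0.10. None of 11 PRC2 subunits passed 2-fold. Ezh2, the methyltransferase of histone H3, read 223 and 161 units (-0.47), and Jarid2 read 1119 and 746 (-0.58).

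Genes of small-intestinal enterocytes made up the list with most higher members of the 47 read. Of 70 listed genes, 64 were measured and 48 reached the floor. Of those 48, 29 were higher and 1 was lower, against 2.13% and 2.19% of all compared genes. The median difference was 1.31, and it was -0.07 for the same genes between the single-knockout arrays. The list was drawn up with its leading members already known from these arrays, so its count is not independent evidence of its direction. Without the 9 compared members named in an earlier account of the arrays, 20 of 39 were higher and the median was 1.06. Of the 29, 9 were under the floor in wild type and were compared only through the DKO array; of the 38 members at the floor on both arrays, 20 were higher and 1 lower. In bulk samples such as these, more cells of a type and more RNA per cell cannot be told apart.

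The higher members covered the handling of fat, sterols, bile acids, peptides and nitrogen. For chylomicron assembly, Mttp, which loads lipid onto apolipoprotein B, read 18.7, 31.6, 29.5 and 376 units (4.33), and its second probe set differed by 2.77. Apob itself read 304, 366, 351 and 667 units (1.13). Apoc2, which activates lipoprotein lipase, read 77.9, 227, 152 and 1070 units (3.78). The triglyceride-making enzymes followed the same direction, Dgat1 at 370, 331, 368 and 1345 units (1.86), Dgat2 at 474, 495, 468 and 1224 (1.37) and Mogat2 at 36.8, 34.4, 33.8 and 79.3 (1.11). In each of these genes the 3 other arrays lay closer to one another than to the DKO array.

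Abcg5 and Abcg8 encode the paired subunits of the sterol exporter of the brush border. Abcg5 read 134, 159, 148 and 1746 units (3.71), and Abcg8 read 75.7, 74.8, 86.0 and 339 units (2.16). They are divergent neighbours with a shared stretch between their starts, and it is printed because it lies before the starts of both. The capitals mark AGATAAG, a form of the GATA motif. A search of both strands of 300-base windows (250 bases before to 50 after a start) found this motif in 225 of 9563 compared genes with a window (2.35%). Among small-intestinal genes a comparison of shares is void, because only 79.2% of them have a window, under the 80% required of a set here. The match is a description of letters, not of a bound site.
Abcg5, chr17:84683021-84683100, minus strand: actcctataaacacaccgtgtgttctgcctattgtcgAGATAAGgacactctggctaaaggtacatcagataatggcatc

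For bile acids, Slc10a2, the sodium-dependent uptake carrier of the ileum, was under the floor on the 3 other arrays and read 66.0 units on the DKO array (2.96). The ileal bile acid binding protein Fabp6 read 207, 210, 141 and 457 units (1.14). Slc51b, a subunit of the basolateral bile acid exporter, read 447 and 564 units in wild type and on the DKO array and did not pass 2-fold (0.33). Peptide and amino acid handling included Naaladl1, a brush border peptidase, at 62.2, 126, 214 and 1774 units (4.83) and Slc7a9, a cystine carrier, at 99.3, 208, 237 and 1206 units (3.60). The urea cycle enzymes Otc (82.6, 271, 139 and 475 units, 2.53) and Cps1 (79.6, 224, 162 and 292 units, 1.88), which enterocytes use to make citrulline, had intermediate values on the single-knockout arrays. Alpi, the intestinal alkaline phosphatase, read 34.4, 39.3, 29.9 and 162 units (2.24). Vnn1, a pantetheinase, read 16.1, 31.8, 24.8 and 407 units (4.66), with 3.80 in its second probe set.

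The pattern was not one of every small-intestinal gene. Enterocyte genes at or near background on all 4 arrays included the lactase gene Lct (8.23 and 7.09 units in wild type and on the DKO array), Fabp1 (9.12 and 11.6), the aminopeptidase gene Anpep (25.9 and 24.9), the fructose and glucose carrier gene Slc2a2 (11.5 and 9.29) and the trehalase gene Treh (9.72 and 9.67). Apoa4 lay just above the floor at 37.5 and 46.1 units (0.30). The glucose carrier Slc5a1 was bright on both at 1436 and 1528 units (0.09), and the peptide carrier Slc15a1 was lower in value without passing 2-fold (333 and 181, -0.88). The glutathione transferase Gstm3 was the only listed member that was lower (699, 1052, 1097 and 220 units, -1.67).

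Among 31 compared members of a list of regional transcription factors of the gut, 4 were higher and none lower, against 2.13% and 2.19% of all compared genes. Of the 4, 2 (Pdx1 and Gata4) were under the floor in wild type and were compared only through the DKO array. Their values had to be larger there, though not necessarily by 2-fold. Of the 29 members at the floor on both arrays 2 were higher. Pdx1, a factor of duodenum and pancreas, read 25.9, 58.8, 23.9 and 209 units (3.01), and its second probe set read 21.6 and 40.8 units in wild type and on the DKO array (0.91). The overlapping noncoding gene Plut was also higher. Gata4, a factor of proximal small intestine, is given above. Creb3l3, a liver and enterocyte regulator of lipid genes, read 85.1, 125, 89.0 and 325 units (1.93), and Maf read 75.5, 99.7, 107 and 158 units (1.06). The general gut factors Cdx2 (394 and 459 units, 0.22) and Hnf4a (4872 and 4827, -0.01) did not pass 2-fold. Isx, a small-intestinal regulator of carotenoid uptake, read 217 and 109 units, just short of the rule (-0.995).

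**Figure D3:**
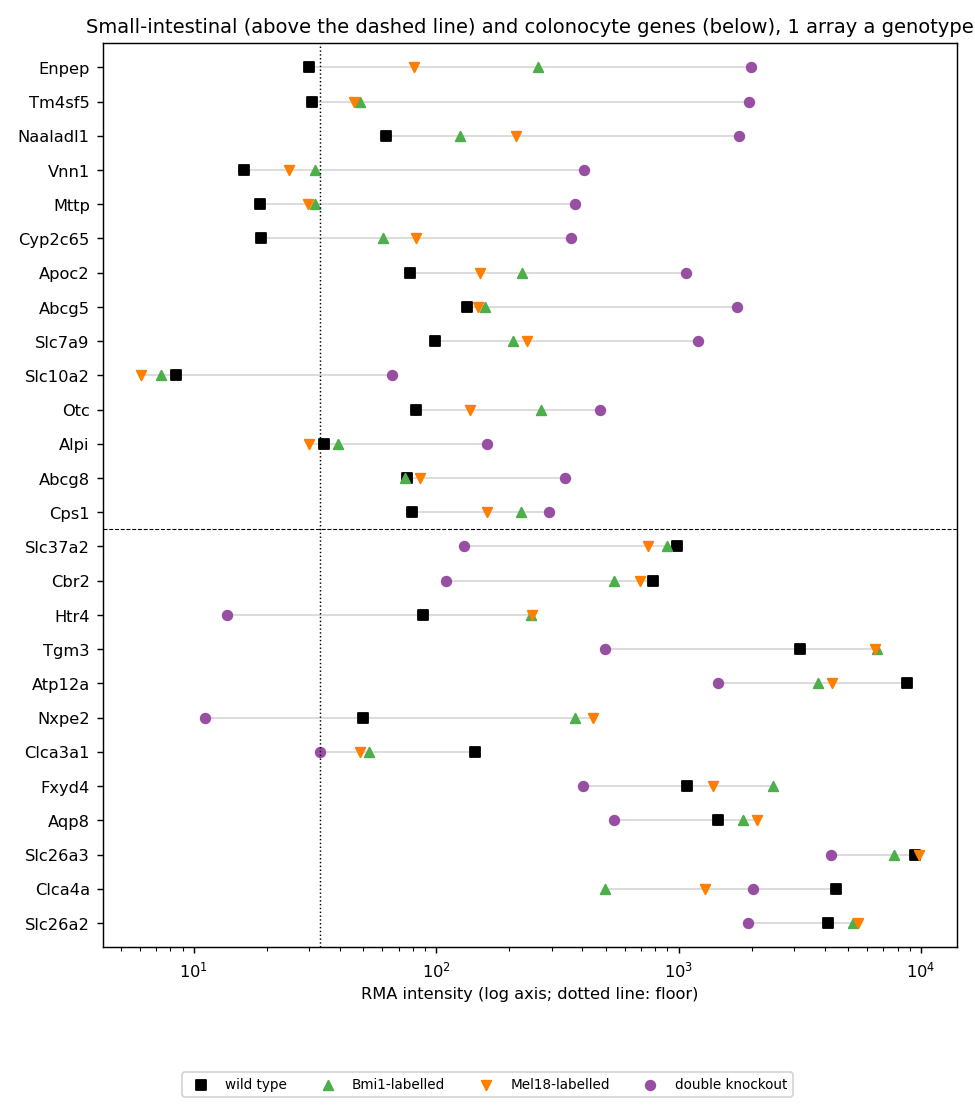
RMA intensities (x, log axis) on the 4 arrays for the 14 small-intestinal genes with the largest higher differences (above the dashed line) and the 12 lower colonocyte genes (below it), 1 symbol per array. The DKO array is rightmost for every gene above the line, from 162 units for Alpi upwards except Slc10a2 at 66.0.

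Colonocyte genes were mixed, with more lower than higher members. Of 42 compared, 12 were lower and 5 higher, against 2.19% and 2.13% of all compared genes. The median was -0.36 (0.20 between the single-knockout arrays). Of the 12 lower members, 3 were under the floor on the DKO array and were compared only through wild type. Of the 5 higher members, 1 was under the floor in wild type and was compared only through the DKO array. Of the 38 members at the floor on both arrays, 9 were lower and 4 higher. This list also held members known beforehand; without the 10 named in an earlier account, 6 of 32 were lower and the median was -0.24. Slc37a2, a sugar phosphate carrier, read 981, 896, 746 and 130 units (-2.91), and Cbr2, a carbonyl reductase, read 781, 540, 696 and 110 units (-2.82). Tgm3, a protein cross-linking transglutaminase, read 3174, 6581, 6487 and 498 units (-2.67), with -2.26 in its second probe set. In all 3 genes the DKO array lay well under the other 3.

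Ion and water transport of the colon surface made up much of the rest of the lower members. Atp12a, the colonic proton pump that exchanges potassium, read 8787, 3755, 4306 and 1448 units (-2.60). Aqp8, a water channel, read 1453, 1849, 2102 and 540 units (-1.43), and Slc26a3, mutated in congenital chloride diarrhoea, read 9458, 7738, 9768 and 4263 units (-1.15). The sulfate carrier Slc26a2 read 4121, 5235, 5483 and 1941 units (-1.09). Fxyd4, a regulator of the sodium pump, read 1085, 2454, 1382 and 403 units (-1.43). Htr4, a serotonin receptor, read 88.1, 245, 250 and 13.7 units (-2.68), and Nxpe2 read 50.1, 376, 445 and 11.1 units (-2.17). For those 2 genes the order from low to high was double knockout, wild type, single knockouts. The calcium-activated chloride channel regulators Clca3a1 (144 units in wild type and 33.2 on the DKO array, -2.12) and Clca4a (4446, 498, 1281 and 2028 units, -1.13) instead had wild type highest of the 4.

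Of the 5 higher colonocyte genes, 3 were bright on all 4 arrays and Prap1 and Cyp2c55 lay near or under the floor in wild type. Guca2a, which encodes the peptide hormone guanylin, read 2542, 3782, 5266 and 13501 units (2.41). Car1, a carbonic anhydrase of surface colonocytes, read 5421, 3622, 5095 and 14807 units (1.45). Prap1 read 39.7, 26.5, 22.9 and 330 units (3.06), and Cyp2c55 read 17.8, 213, 353 and 124 units (2.80). Clca1, a mucus protease that goblet cells secrete, read 4913, 4039, 7934 and 10091 units (1.04). Other surface genes were level, among them Car4 (-0.14), Krt20 (0.13) and Ceacam1 (0.06).

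Many genes for copying DNA were lower and none was higher. Of 50 DNA replication genes, all compared, 21 were lower and none higher, against 2.19% and 2.13% of all genes, and 48 lay below 0. Their median was -0.78, and between the single-knockout arrays it was -0.36. Without 3 members named in an earlier account, 18 of 47 were lower and the median was -0.66. Of the 45 members at the floor on both arrays, 18 were lower. The replicative helicase was lower in every subunit: Mcm5 read 714, 481, 287 and 143 units (-2.32), Mcm6 read 403, 422, 279 and 83.1 units (-2.28) and Mcm7 read 1114, 886, 596 and 358 units (-1.64). Mcm3 (-1.60), Mcm2 (-1.55) and Mcm4 (-1.11) completed it. The DKO array was lowest of the 4 for each of Mcm5, Mcm6 and Mcm7, and the Mel18-labelled array was next.

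The origin licensing genes were lower too, with Cdc6 at 39.7, 28.6, 22.8 and 16.1 units (-1.30) and Cdt1 at 614, 598, 457 and 277 units (-1.15). The primase and polymerase genes Pola1 (97.3, 122, 75.9 and 33.3 units, -1.55), Prim1 (179, 236, 142 and 75.8 units, -1.24) and Pole (80.2, 58.0, 54.1 and 34.3 units, -1.23) were lower. Uhrf1, which carries DNA methylation through replication, read 234, 227, 161 and 71.6 units (-1.71). Genes for origin firing were mixed: Gins1 (-1.29) and Gins2 (-1.12) were lower, and Cdc7 (-0.51), Dbf4 (-0.66), Cdc45 (-0.47), Gins3 (-0.28) and Gins4 (0.04) did not pass. The origin recognition complex was nearly level, with Orc1 to Orc6 between -0.60 and 0.00, and the sliding clamp Pcna read 2096, 2074, 1562 and 1185 units without passing 2-fold (-0.82). Of 13 genes for deoxynucleotide supply, 4 were lower and none higher (median -0.63): the ribonucleotide reductase genes Rrm2 (396, 175, 119 and 89.1 units, -2.15) and Rrm1 (327, 318, 226 and 137 units, -1.26, with -0.44 in its other probe set), the thymidine kinase Tk1 (-1.13) and Dut (-1.09).

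E2F transcription factors are the known activators of replication genes at the start of S phase, and so their letters were counted in the promoter windows of RefSeq (GRCm38.p6). TTTGGCGC, TTTCCCGC or TTTCGCGC, on either strand, occurred in 377 of 9563 compared genes with a window (3.94%) and in 322 of the 6574 of them that were CpG-rich (4.9%). Of the replication genes, 18 of 41 with a window had a match (43.9%). Among the lower ones it was 11 of 17 (64.7%), and among those not past 2-fold it was 7 of 24 (29.2%); the difference between these shares was not tested. Mitosis genes had 3 of 44 (6.82%) and homologous recombination genes 4 of 20 (20%). Stretches of 80 bases before the start are shown for 4 of the lower replication genes, 5′ to 3′ on the gene's strand, to let the matches be read in place, with the matched letters in capitals. In Mcm5 and Mcm6 the capitals join a match on each strand that overlap.
Mcm5, chr8:75109320-75109399, plus strand: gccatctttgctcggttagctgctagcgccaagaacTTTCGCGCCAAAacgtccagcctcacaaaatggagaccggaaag
Mcm6, chr1:128359772-128359851, minus strand: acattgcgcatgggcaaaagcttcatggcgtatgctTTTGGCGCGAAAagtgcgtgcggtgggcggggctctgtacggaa
Uhrf1, chr17:56304092-56304171, plus strand: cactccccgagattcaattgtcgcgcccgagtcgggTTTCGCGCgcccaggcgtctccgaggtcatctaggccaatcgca
Cdc6, chr11:98907977-98908056, plus strand: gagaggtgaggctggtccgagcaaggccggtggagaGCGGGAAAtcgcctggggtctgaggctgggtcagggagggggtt
For all genes at least 2-fold higher or lower no share is given, since 76.3% and 76.8% of them have a window, and such a count is void.

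Mitosis genes had fewer members past 2-fold, on the same side. Of 49 compared, 11 were lower and none higher, against 2.19% and 2.13% of all compared genes. In value 46 lay below 0, with a median of -0.74 (-0.13 between the single-knockout arrays). Of the 11, 4 were under the floor on the DKO array and were compared only through wild type. Of the 39 members at the floor on both arrays 7 were lower. Mki67, the proliferation marker Ki-67, read 612, 464, 474 and 225 units (-1.44), and Top2a, which untangles chromosomes, read 227, 219, 165 and 83.1 units (-1.45), though its second probe set differed by only -0.46. Kif20b read 63.7, 64.4, 65.0 and 23.0 units (-1.47), and the spindle checkpoint kinase Bub1 read 56.4, 54.4, 48.3 and 21.0 units (-1.42). For these the other 3 arrays lay close together and the DKO array below them. Several central mitosis genes fell short of 2-fold, among them Cdk1 (205 and 116 units in wild type and on the DKO array, -0.82), Plk1 (105 and 71.3, -0.56), Cdc20 (470 and 351, -0.42) and Ccnb2 (93.3 and 82.1, -0.18). Pttg1, the separase inhibitor, read 2728 and 3137 units (0.20). Of 24 genes for homologous recombination and repair, 8 were lower and none higher (median -0.62), led by Rad51ap1 (74.6, 51.4, 44.8 and 17.7 units, -2.07) and Brca1 (49.7, 40.7, 24.2 and 12.4 units). Of these 8, 6 were under the floor on the DKO array and were compared only through wild type, so they had to be lower in value. Of the 18 members at the floor on both arrays 2 were lower. With the mean of a gene's probe sets in place of the brightest, 13 replication and 5 mitosis genes were lower.

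The cell cycle entry genes were not of 1 direction. Of 27 G1/S and E2F genes, 5 were lower and 2 higher (median -0.43), against 2.19% and 2.13% of all compared genes. Myb read 976, 1713, 1373 and 281 units (-1.80), E2f8, a repressor of E2F targets, read 167, 129, 107 and 50.8 units (-1.72), and the cyclin gene Ccne2 read 80.6, 54.1, 46.6 and 25.4 units (-1.66). Ccnd2 was higher at 2381, 3434, 2802 and 5854 units (1.30), while Ccnd1 was level at 866 and 922 (0.09). Targets of p53 did not move together: of 19 compared, 1 was higher (Phlda3, 91.6, 64.5, 89.9 and 185 units, 1.02) and none lower, with a median of 0.14. Mdm2, a standard p53 target, read 266 and 262 units (-0.02). The senescence-linked list had 3 higher and 4 lower of 18. Its higher members were Il33, an alarmin (27.5, 33.6, 36.9 and 182 units, 2.73), the growth factor Ereg (26.4, 12.9, 12.4 and 65.2 units, 1.30) and the urokinase receptor Plaur (152, 95.8, 92.3 and 330 units, 1.12). The lower ones were the chemokines Ccl7, Ccl8, Cxcl2 and Ccl2. Here the named members of a list about 1 state thus lay on both sides.

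**Figure D4:**
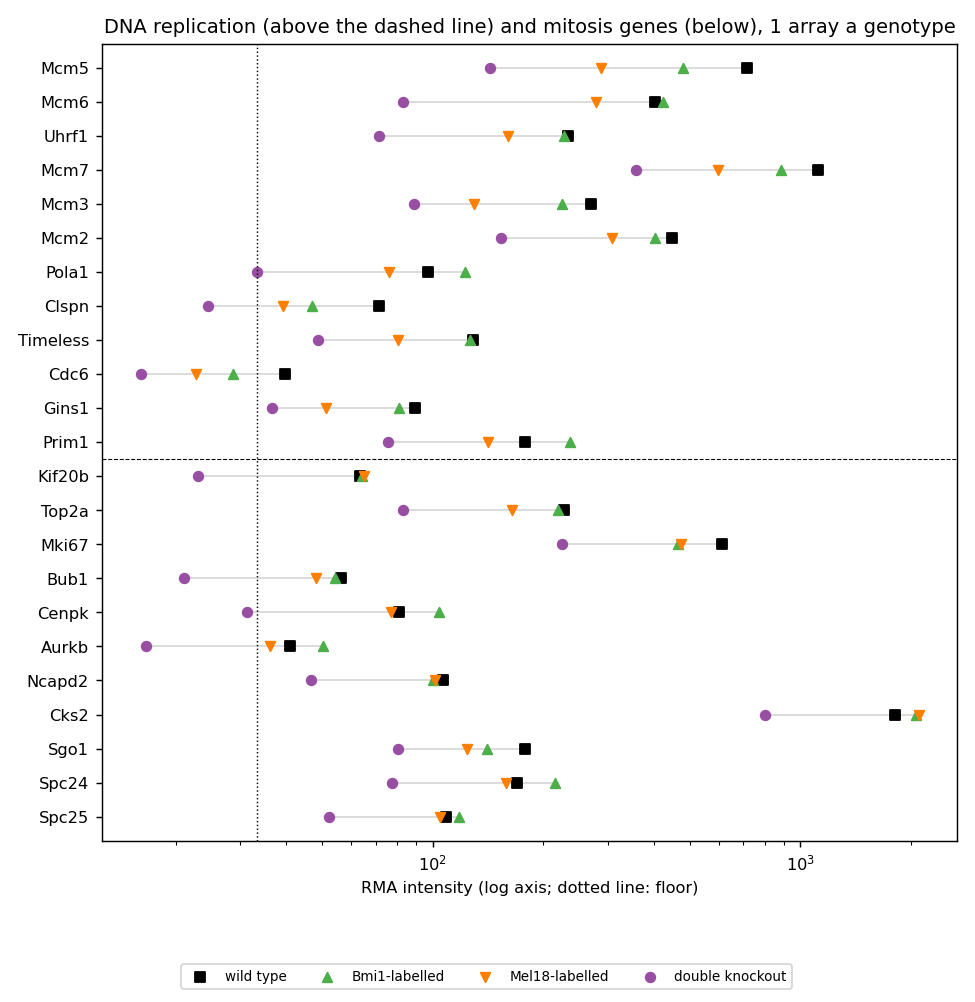
RMA intensities (x, log axis) on the 4 arrays for the 12 DNA replication genes with the largest lower differences (above the dashed line) and the 11 lower mitosis genes (below it), 1 symbol per array. The DKO array is leftmost for each gene, for example 143 units for Mcm5 against 714 in wild type.

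Secreted defence genes had more lower than higher members. Of 28 Reg family and antimicrobial genes, 3 were higher and 8 lower, against 2.13% and 2.19% of all compared genes, with a median of -0.37. Pla2g2a, a bactericidal phospholipase, had the lowest difference of all compared genes, at 534, 114, 279 and 35.4 units (-3.91), and its neighbour Pla2g5 read 271, 182, 243 and 47.9 units (-2.50). The ribonuclease Ang4 read 245, 354, 307 and 50.1 units (-2.29), whereas Ang, of the same family, was higher at 395, 528, 1347 and 999 units (1.34). Retnlb, a goblet cell product active against bacteria and worms, read 2665, 116, 298 and 716 units (-1.90). The acute phase protein Saa3 read 786, 67.9, 72.6 and 148 units (-2.41), and the peroxidase Lpo read 1384, 60.4, 70.4 and 603 units (-1.20). For Retnlb, Saa3 and Lpo wild type was highest and the DKO array lay between it and the single-knockout arrays. Other Reg genes were dim, with Reg1, Reg2, Reg3a and Reg3d all under the floor on both arrays, and Reg4 read 2261 and 2776 units (0.30).

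Wild type was also the brightest of the 4 arrays for several injury and inflammation genes. Plet1, a surface protein of wound-associated epithelium, read 2414, 57.2, 77.0 and 247 units (-3.29). Another of its probe sets, of the _s_at type, differed by -3.04, but the third, with a plain _at name, differed by -0.35. The probe set used is of the _a_at type, which transcripts of 1 gene share. The call thus rests on the _a_at and _s_at probe sets. Lrg1 read 476, 13.1, 37.2 and 59.3 units, and Osmr, the oncostatin M receptor, read 203, 39.4, 35.8 and 34.4 units (-2.56). The other Osmr probe sets were under the floor, and the mean over all of them differed by -0.74. Ccl7 read 318, 57.1, 34.6 and 33.1 units (-3.26). Of 31 injury repair and fetal-like genes 5 were higher and 3 lower, and of 35 cytokine and chemokine genes 4 were higher and 7 lower. The shares of all compared genes were 2.13% higher and 2.19% lower. Among interferon response genes 2 were higher and 4 lower of 41, led by Ifit2 (1575, 633, 161 and 511 units, -1.62), and for 12 genes of MHC class II presentation none passed 2-fold. Beside these counts stand the neutrophil genes S100a8 (935, 33.1, 93.4 and 851 units) and S100a9 (762, 15.95, 52.7 and 731 units), which were bright on exactly the arrays compared here. The neutrophil list had no member past 2-fold of 12, and its summed level was 2788 units in wild type and 2655 on the DKO array, against 490 and 607 on the single-knockout arrays. S100a8 and S100a9 made up much of the wild-type and DKO sums. Some other members were near or under the floor on all 4 arrays, and in each of them the arrays were under 2-fold apart. They include Elane (29.7, 28.4, 31.1 and 34.4 units), Ngp (36.2, 28.1, 33.6 and 39.3), Mpo (13.3, 9.87, 11.6 and 13.6) and Prtn3 (22.6, 22.05, 21.9 and 23.9). The further members that add to these sums are not listed here. The part of neutrophils in the injury genes was not tested.

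The remaining genes with the 15 lowest differences were of varied function. Of the 15, 13 were lowest on the DKO array of the 4, and 7 were under the floor there. Smpx, known from striated muscle, read 82.6, 291, 242 and 9.67 units (-3.09), and Shisa2, an endoplasmic reticulum protein that dampens Wnt and FGF receptors, read 83.0, 304, 263 and 12.8 units (-2.70), with -2.96 in its second probe set. The beta-defensin gene Defb45 read 189, 366, 254 and 29.2 units (-2.69). In these 3 the single-knockout arrays were above wild type and the DKO array was under the floor. Cpne8, a calcium-dependent membrane binder, read 148, 99.4, 87.1 and 23.1 units (-2.68), and its other probe sets differed by -2.58 and -0.93.

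Other epithelial lineages differed in a few genes each. Enteroendocrine genes gave 6 higher and none lower of 20, against 2.13% and 2.19% of all compared genes, with a median of 0.47. The hormone genes among them were Cck (13.1, 16.3, 15.7 and 68.2 units, 2.38), Sst (69.9, 58.8, 85.0 and 176 units, 1.33), Tac1 (1298, 227, 671 and 3064 units, 1.24), Gcg (250, 453, 322 and 587 units, 1.23) and Sct (96.6, 74.6, 88.1 and 227 units, 1.23), with the granule protein Chga at 214, 258, 250 and 512 units (1.26). All 6 were highest on the DKO array. Cck was under the floor in wild type and was compared only through the DKO array. Of the 17 members at the floor on both arrays 5 were higher. Hormone genes that did not pass were Pyy (1684 and 2228 units in wild type and on the DKO array, 0.40) and Insl5 (1322 and 1034, -0.35), both typical of hindgut, and the lineage factor Neurod1 was level (81.3 and 79.8, -0.03).

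Goblet cell genes gave 2 higher and 1 lower of 27, against 2.13% and 2.19% of all compared genes, with a median of 0.37. The chief mucin Muc2 read 11596 and 14180 units (0.29), Tff3 read 12715 and 18003 (0.50) and the fate factor Atoh1 read 438 and 585 (0.42), all short of 2-fold. None of 13 tuft cell genes passed. Of 11 Paneth-type genes 2 were lower, both described above among the antimicrobial genes, and 2 were higher. The higher ones were the pancreatic-type lipase gene Pnliprp2 (16.5, 24.8, 29.2 and 146 units, 3.15) and the colipase gene Clps (102, 426, 310 and 305 units, 1.58). Lyz1 (1608 and 2655 units, 0.72) did not pass.

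Stem cell and Wnt target genes gave 4 lower and 2 higher of 26, against 2.19% and 2.13% of all compared genes. Cdca7 read 177, 337, 203 and 51.1 units (-1.79), and Axin2, a direct Wnt target, read 144, 239, 156 and 66.0 units (-1.12). Smoc2 (42.0, 188, 94.95 and 20.2 units, -1.06) and Lrig1 (421, 737, 633 and 202 units, -1.06), both marks of crypt stem cells, had the same order, with the Bmi1-labelled array highest. Lgr5 was under the floor on both arrays compared (21.7 and 18.8 units). Sox9 and Prom1 (2118, 964, 2287 and 5342 units, 1.33) were higher. None of 19 Notch and secretory fate genes passed, although Notch1 read 206 and 107 units (-0.95).

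Some enzymes of fatty acid synthesis were lower. Of 34 genes of fatty acid and sterol synthesis, 6 were lower and none higher, against 2.19% and 2.13% of all compared genes. The median was -0.49 (0.05 between the single-knockout arrays), and 27 lay below 0. Scd1 read 391, 120, 186 and 98.4 units (-1.99) and Scd2 read 6132, 4619, 4954 and 1813 units (-1.76). Fasn, which builds palmitate, read 1055, 630, 722 and 477 units (-1.15), Acaca, which makes its malonyl-CoA, read 486, 315, 347 and 232 units (-1.07), and Acly read 3380, 3683, 3701 and 1658 units (-1.03). Those steps are consecutive in fatty acid synthesis, whereas the sterol branch did not pass: Hmgcs1 read 5340 and 5195 units (-0.04), Sqle 1750 and 1159 (-0.59), and Fdps 1419 and 789 (-0.85). Fatty acid oxidation genes gave 4 higher and none lower of 30.

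Xenobiotic metabolism had members on both sides, with 9 higher and 8 lower of 50, against 2.13% and 2.19% of all compared genes. Of these, 3 higher members were under the floor in wild type and 2 lower ones under it on the DKO array. Of the 45 members at the floor on both arrays, 6 were higher and 6 lower. The lower members included the glutathione transferases Gstm1 (1539, 2915, 2248 and 380 units, -2.02, but up to -0.08 among its 4 probe sets), Gstm2 (578, 990, 730 and 284 units, -1.02) and Gsta3 (120, 273, 137 and 30.4 units, -1.97) and the cytochrome Cyp2c68 (519, 1826, 1530 and 206 units, -1.33). The higher ones included the cytochromes Cyp2c65 (19.02, 60.1, 82.9 and 360 units, 4.24) and Cyp2c55. These Cyp2c genes are close paralogs, as are the Gstm genes, and probe sets may share signal among such copies. Metallothioneins Mt1 (3593, 8427, 10359 and 11726 units, 1.71) and Mt2 (1093, 2651, 3456 and 3043 units, 1.48) were lowest in wild type and alike on the 3 knockout-labelled arrays. The same order held for the growth hormone receptor gene Ghr (123, 376, 402 and 405 units, 1.72) and its target Socs2 (118, 260, 276 and 270 units, 1.20). The heat shock genes Hspa1a (227, 46.0, 60.1 and 43.1 units, -2.40) and Hspa1b (1789, 285, 526 and 434 units, -2.05) were highest in wild type, and Hsph1 read 571, 285, 267 and 183 units (-1.64). They were the only members past 2-fold of 37 heat shock and unfolded protein response genes.

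**Figure D5:**
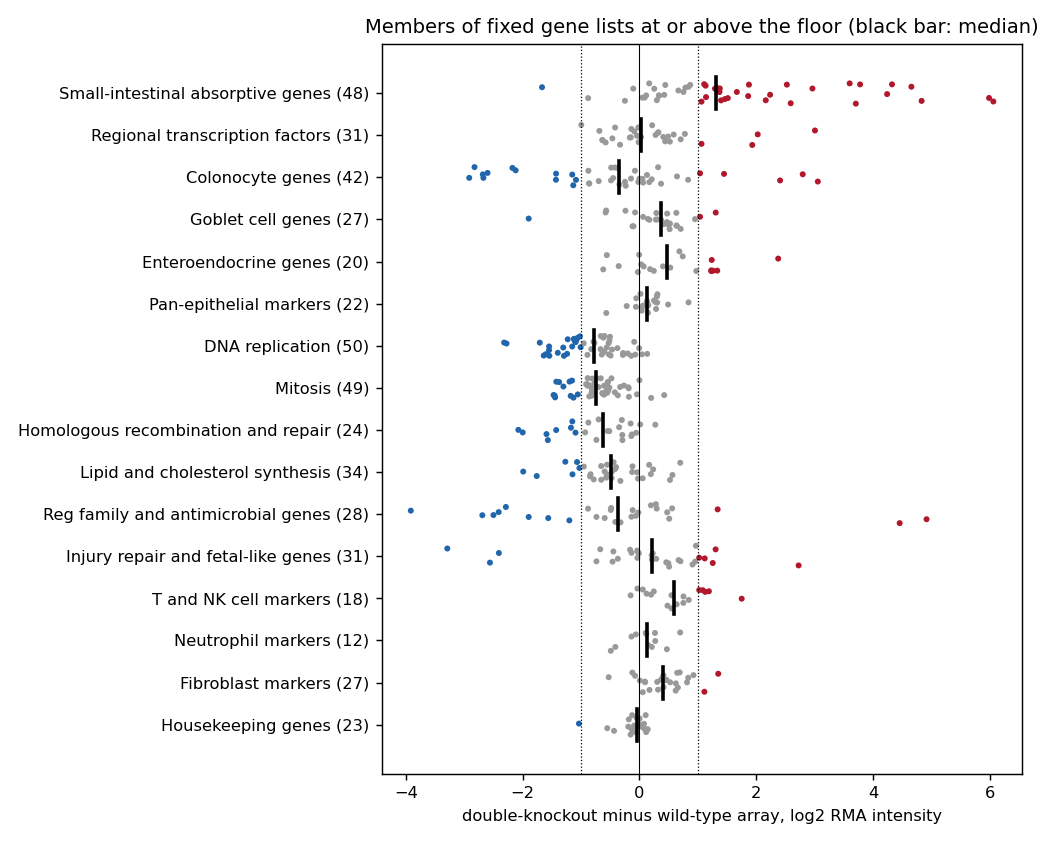
Each dot is a compared member of a gene list, placed by its log2 difference between the DKO and wild-type arrays (x), with the number of members beside the list's name, dotted lines at 2-fold and a black bar at the median. The bar lies at 1.31 for small-intestinal genes, at -0.78 for DNA replication, at -0.74 for mitosis and at 0.13 for pan-epithelial markers.

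Genes of other cell types were read because the cells were not sorted. T and NK cell markers gave 5 higher and none lower of 18, against 2.13% and 2.19% of all compared genes, with a median of 0.59. The granzymes Gzma (203, 100, 69.0 and 683 units, 1.75) and Gzmb (154, 79.5, 47.8 and 312 units, 1.02) and the receptor chain Cd3g (62.1, 68.6, 44.3 and 142 units, 1.19) were among them. Of the defining markers, Cd3e read 96.2 and 105 units in wild type and on the DKO array (0.12), Cd3d 101 and 147 (0.55) and Cd8a 35.3 and 59.4 (0.75). The summed level of the list was 2174 units in wild type, 1718 and 1337 on the single-knockout arrays and 3645 on the DKO array. Fibroblast markers gave 2 higher and none lower of 27, 24 of them lay above 0, and their sum was 6329, 3192, 6374 and 9055 units in the array order. One of the higher pair, Pdgfrb, had probe sets on both sides of 0. B and plasma cell markers gave 2 higher of 12, Jchain (790, 786, 725 and 1686 units, 1.09) and Ighm (127, 149, 191 and 309 units, 1.29). No macrophage (24), smooth muscle (17), endothelial (14) or glial (8) marker passed, with medians of 0.17, 0.02, 0.15 and 0.11. None of 6 pancreas and liver markers passed 2-fold, and the acinar markers Cela2a, Cpa1 and Cpb1 were under the floor on all 4 arrays. Cela3b (65.1, 49.6, 55.6 and 61.9 units) and Prss2 (63.4, 51.4, 63.9 and 63.6 units) of the same list lay above it on all 4. The summed level of that list was 4369, 12701, 10718 and 3721 units in the array order, most of it from Cela1 (3016, 7498, 6781 and 1911 units). What these cells add to other differences was not tested.

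Some of the 512 genes were neighbours on the chromosome. Among 11836 compared genes placed in RefSeq order, adjacent genes past 2-fold in the same direction formed 30 runs, 16 of higher and 14 of lower genes, which held 66 genes. The 5 runs of 3 or more were all lower: the chemokines Ccl2, Ccl7 and Ccl8, the protease inhibitors Wfdc17, Wfdc18 and Wfdc21, the heat shock genes Hspa1b and Hspa1a with D17H6S56E-5, the glutathione transferases Gstm3, Gstm2 and Gstm1, and Clca3a1, Clca3a2, Clca3b and Clca4c-ps. Higher runs were pairs, such as Abcg5 with Abcg8, Cdkn2a with Cdkn2b, Reg3b with Reg3g, Dgat2 with Mogat2, Mt2 with Mt1 and Apoa1 with Apoc3. Most named runs hold genes of 1 family, whose probe sets can share sequence. How many runs the same number of genes would form by chance was not computed.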

How the data were processed

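The values are intensities per probe set of Affymetrix mouse expression arrays. Per the submitters' processing notes, the authors used RMA in Affymetrix Expression Console; a version, or a joint summary of the 4 arrays, is not stated in the notes. The deposited intensity values are on a linear scale (3.25 to 22803), whereas the plan of the tests assumed log2 values, so log2 was taken with no pseudocount and no further scaling. RMA is known to compress differences between dim values. Symbols came from the platform annotation and 34741 of 34945 were updated through RefSeq (GRCm38.p6). Another 932 probe sets had several symbols and 9160 were not listed. For a gene with several probe sets, the one brightest on average over all 4 arrays was used. It was compared where it reached the floor (percentile 50 of all values) on either array, and it counted as higher or lower at 2-fold.

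The 47 gene lists, the rules and the members were chosen with earlier results of these data known. Genes named are the 15 highest and 15 lowest, genes of 3 or more probe sets that agree, up to 6 members per list and direction, first members of lists, all probe sets of Bmi1, Pcgf2 and Cdkn2a, and the 10 brightest genes of each array; further list members were named after their values were seen, to show a list's range. Members that are not on the array under a symbol used here were not analysed here. Promoter windows of RefSeq were searched for motifs after their orientation was checked on 1647 overlapping pairs. Scripts ran in Python 3.11.15 (numpy 2.4.6, pandas 2.3.3, matplotlib 3.10.9) and were tested on simulated data. Alternatives were other choices of probe set, floor, scaling, fold rule and pseudocount, and leaving out probe sets of the _s_at, _x_at and _a_at types.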

Additional observations from a re-analysis of the deposited data

Results flagged for a closer look

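Of the 9160 probe sets with no entry in the platform annotation used here, 3042 reached the floor on either array, and 66 of them were at least 2-fold higher and 46 at least 2-fold lower on the DKO array. Of the 932 probe sets with several symbols, 585 reached the floor, and 7 were higher and 27 lower. These signals lie outside the gene comparison, and no gene is named for them.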

How the results depend on the processing

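No paired analysis was possible because each genotype has 1 array, and no replicate could be left out. Between 48.3% and 55.2% of the genes past the rule were higher under every alternative run, and the median of all genes moved by less than 0.1. A 1.5-fold rule gave 726 higher and 777 lower genes, 245 genes with every probe set past it and 6 with probe sets past it in opposite directions. The count of lower genes was 169 with the mean of a gene's probe sets, 155 with the floor at percentile 75 (136 units) and 172 with log2(value + 16). Genes with all probe sets in 1 direction numbered 1592 with the higher floor, which leaves fewer genes. Without probe sets of the _s_at, _x_at and _a_at types they numbered 1791, and 42 genes had every probe set past 2-fold. Lower DNA replication genes numbered 13 with the mean, 12 with the higher floor and 33 at 1.5-fold. Lower mitosis genes numbered 5, 5 and 31 under those settings and 6 with log2(value + 16), and lower lipid synthesis genes 3 with the mean and 13 at 1.5-fold. Leaving out list members named in an earlier account, an alternative added after seeing the data, left 6 lower colonocyte genes; for replication, mitosis, lipid synthesis and small-intestinal genes that count stayed within 1.5 times. The counts of higher small-intestinal and lower colonocyte genes stayed within 1.5 times under every other alternative. Pdgfrb turned to -0.12 without those probe set types, and Xaf1 turned to -0.36 with the probe set brightest on the 2 arrays. Of 414 genes covered by the naming rule, 42 no longer passed with the mean of probe sets, 42 with the higher floor, 27 with log2(value + 16) and 13 without those probe set types. Beyond the smaller number of genes or probe sets compared, the cause was not tested. Signal near background limits the size of the largest differences.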
